A study of Mus musculus with 4 samples.

Results

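The genes followed here are 10 members of the Wnt pathway, from ligand release to feedback, measured across the cell types of the mouse digit tip. They were taken by symbol from the 33696 genes of the count tables, and each symbol matched 1 gene. They are Wls (ENSMUSG00000028173), the ligands Wnt4 (ENSMUSG00000036856), Wnt5a (ENSMUSG00000021994) and Wnt10a (ENSMUSG00000026167), the agonist Rspo4 (ENSMUSG00000032852), its receptor Lgr6 (ENSMUSG00000042793), the transcription factor Lef1 (ENSMUSG00000027985), and the feedback genes and inhibitors Axin2 (ENSMUSG00000000142), Notum (ENSMUSG00000042988) and Wif1 (ENSMUSG00000020218). At least 1 UMI (unique molecular identifier, the tag that marks a captured transcript) of a member was found in 25133 of the 29076 cells kept from SAR131675 and 20224 of the 24030 from control diet. For LNR it was 14035 of 19827 and for sham 14788 of 20669.

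The labels of all 4 libraries give P3 digit (P3 is the terminal phalanx, which bears the nail) of female C57BL/6 mice (C57BL/6J in the study's methods) aged 6 to 8 weeks, with digits of 10 mice pooled in each library. By the study's methods, the tip was cut on hindlimb digits 2 and 4, and digits 2 to 4 were collected from the proximal part of P2, the phalanx before P3, so the tissue reached beyond P3 and may hold an uncut digit. In 1 experiment, mice ate chow with SAR131675, an inhibitor of the lymphatic receptor VEGFR3, at 30 mg/kg or control chow, with 8 days of diet given in the labels. The time after amputation in this experiment is left out here, because the study's text and a figure legend differ on it. In the other, lymph nodes were removed (LNR) and the opposite limb served as sham, which the labels call untreated. Each condition is 1 library and each library is a batch of its own, so condition and batch cannot be told apart and no p-value is given. The intervals below are exact at 95% and cover counting error only.

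In the Wnt pathway, WLS carries newly made, lipid-modified ligands to the cell surface, where they bind Frizzled receptors and LRP co-receptors and keep β-catenin from being degraded. β-catenin then works with TCF and LEF factors such as LEF1 to switch on targets, among them AXIN2 and NOTUM, which dampen the signal again. R-spondins bind LGR receptors and keep Frizzled receptors on the surface. In the digit tip the pathway is known for its role in the nail and in hair follicles, and loss of RSPO4 leaves people without nails.

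The SAR131675 and control diet libraries held 585284877 and 448276501 UMIs, and the LNR and sham libraries 168507188 and 175998346. Kept cells had medians of 11316, 10712, 5725 and 5851 UMIs in this order. The 2 experiments were counted with different Cell Ranger versions, and whether reads in introns were counted is not given in the sources used here, so levels are set side by side between experiments and conditions are compared only within one. LNR and sham shared 130 cell barcodes, and SAR131675 and control diet shared 348. Libraries of different experiments shared 0 to 3, and the reason was not tested. Cells were clustered without the members and sorted by marker genes into 26 classes with at least 20 cells in every library. Levels below are CPM, the UMIs of a gene scaled to a fixed total of UMIs of its class. Mean ± SD values run over the 4 libraries (n = 4), which differ at least in treatment and in counting.

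**Figure D1:**
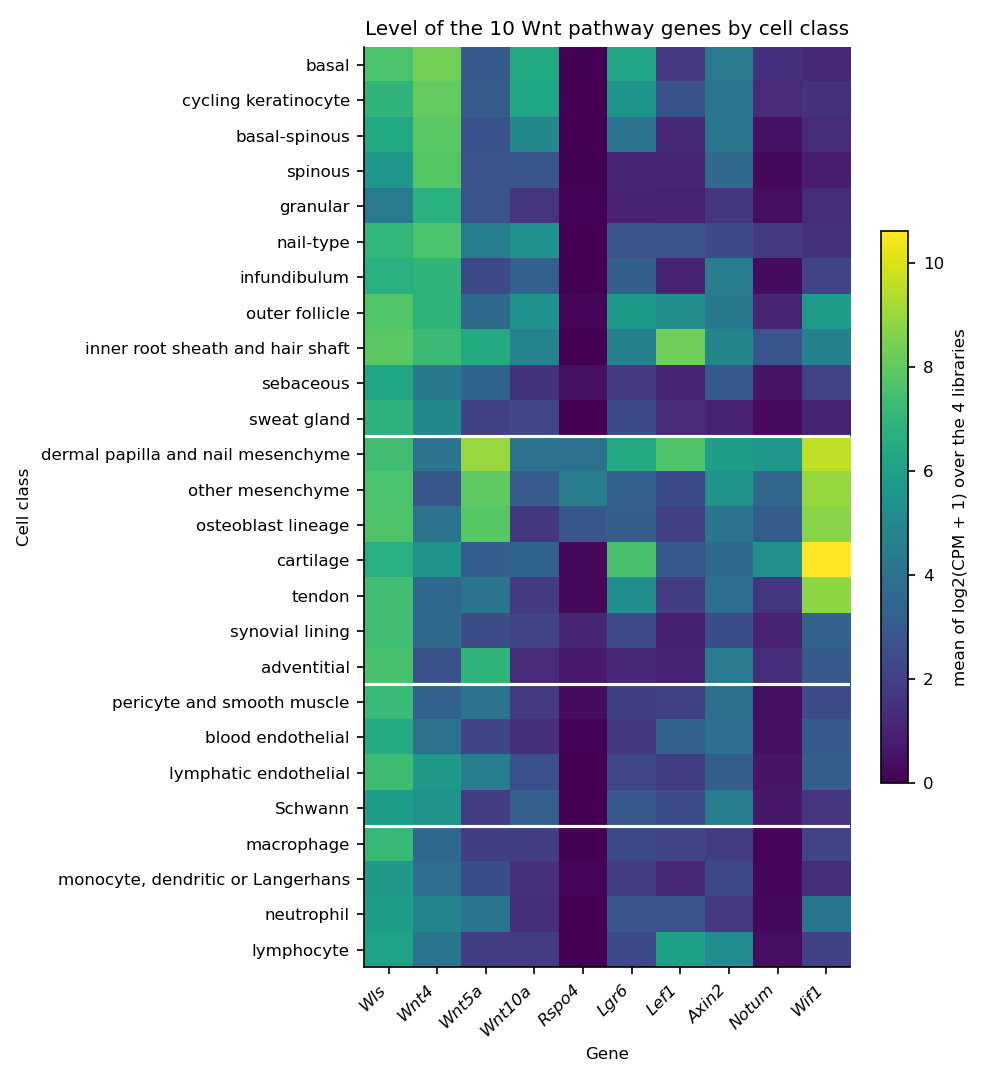
Level of the 10 genes (columns) in the 26 cell classes (rows), as the mean of log2(CPM + 1) over the 4 libraries. White lines separate epithelial, mesenchymal, vascular and nerve, and immune classes. Wnt4 and Wnt10a are brightest in basal keratinocytes, Wnt5a in the dermal papilla and nail mesenchyme, Lef1 in the inner root sheath and hair shaft, and Wif1 in cartilage.

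Wls, the carrier for Wnt ligands, was broadly expressed, and no class stood apart in all libraries. Its mean level was highest in the inner root sheath and hair shaft class, at 275 ± 154 CPM, with 404 CPM in SAR131675, 411 CPM in control diet, 142 CPM in LNR and 141 CPM in sham. Outer follicle keratinocytes followed at 228 ± 92.3 CPM, and the values of 14 other classes overlapped those of the leading class. The class with the highest value was not the same in all libraries, since osteoblast lineage cells led in LNR at 183 CPM and adventitial fibroblasts in sham at 171 CPM. Macrophages held 139 ± 11.1 CPM.

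Wnt4 had its highest levels in the epidermis. In basal keratinocytes, which line the basement membrane, it stood at 350 CPM in SAR131675, 381 CPM in control diet, 273 CPM in LNR and 305 CPM in sham, with 328 ± 47.9 CPM on average. Cycling keratinocytes came next at 266 ± 32.3 CPM and overlapped the basal class. The level stayed above 200 CPM in every library in cells between the basal and spinous layers (241 ± 17.1 CPM) and in the spinous layer (223 ± 30.2 CPM), and nail-type keratinocytes, which express Krt42 and Spink12, held 196 ± 28.7 CPM. Macrophages held 11.8 ± 6.01 CPM. To compare shares of cells, cells were thinned to 2000 UMIs and those with fewer were left out, so these shares hold for the deeper cells of a class. In the basal class 109, 270, 6 and 28 cells of SAR131675, control diet, LNR and sham were left out, and among macrophages 108, 72, 189 and 191. After thinning, a Wnt4 UMI was found in 39.6 to 49.3% of basal cells (78.9 to 88.9% of all before it, median depth 6929.5 to 12152 UMIs) and in 0.773 to 2.27% of macrophages (1.56 to 7.39% before it, median depth 3030 to 7083 UMIs).

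Wnt10a, a ligand whose loss affects skin appendages, shared the basal compartment. It stood at 106 CPM in SAR131675, 102 CPM in control diet, 72.5 CPM in LNR and 70.2 CPM in sham basal cells, with 87.7 ± 19 CPM on average. Cycling keratinocytes again followed and overlapped, at 78.3 ± 14.3 CPM. Unlike Wnt4, its level was low beyond the basal layer, at 30.7 ± 2.83 CPM in basal-spinous cells, while outer follicle cells (42.7 ± 7.54 CPM) and nail-type keratinocytes (41.7 ± 6.56 CPM) lay between. Macrophages held 2.96 ± 1.38 CPM. Over the 26 classes, the profiles of Wnt10a and Wnt4 (mean log2 level) had a Pearson r of 0.77, a description across classes of the same libraries.

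Wnt5a, which mostly signals without β-catenin, had its highest levels in mesenchyme. The class of dermal papilla and nail mesenchyme was 1 cluster in the diet pair and several in the LNR pair, all with Rspo3 and a among their leading genes. Hhip was among them in the diet pair and in 1 small cluster of the LNR pair (34 LNR and 25 sham cells). The class held 607 CPM in SAR131675, 532 CPM in control diet, 481 CPM in LNR and 390 CPM in sham, with 503 ± 91.2 CPM on average. No other class reached these values in any library. Mesenchyme without a more specific name, called other mesenchyme here (265 ± 95.7 CPM), osteoblast lineage cells (239 ± 71.4 CPM) and adventitial fibroblasts (122 ± 17.9 CPM) followed. In sham, single clusters of other mesenchyme exceeded the 390 CPM of the dermal papilla class. They were those led by Dkk2, Crabp1 and Coch (473 CPM) and by Lrrc15, Tnn and Tnnt1 (427 CPM). Outside the mesenchyme the highest level was in the inner root sheath and hair shaft class, at 94.4 ± 38.4 CPM. Thinning left out 19 of 397 SAR131675, 25 of 240 control diet, 58 of 168 LNR and 75 of 136 sham cells of this class, which had a median depth of 1890.5 to 6817 UMIs. A Wnt5a UMI was found in 50.7 to 63.9% of the cells that remained, in 54.4 to 84.4% of all cells of the class before thinning, and in 0.174 to 0.773% of macrophages.

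**Figure D2:**
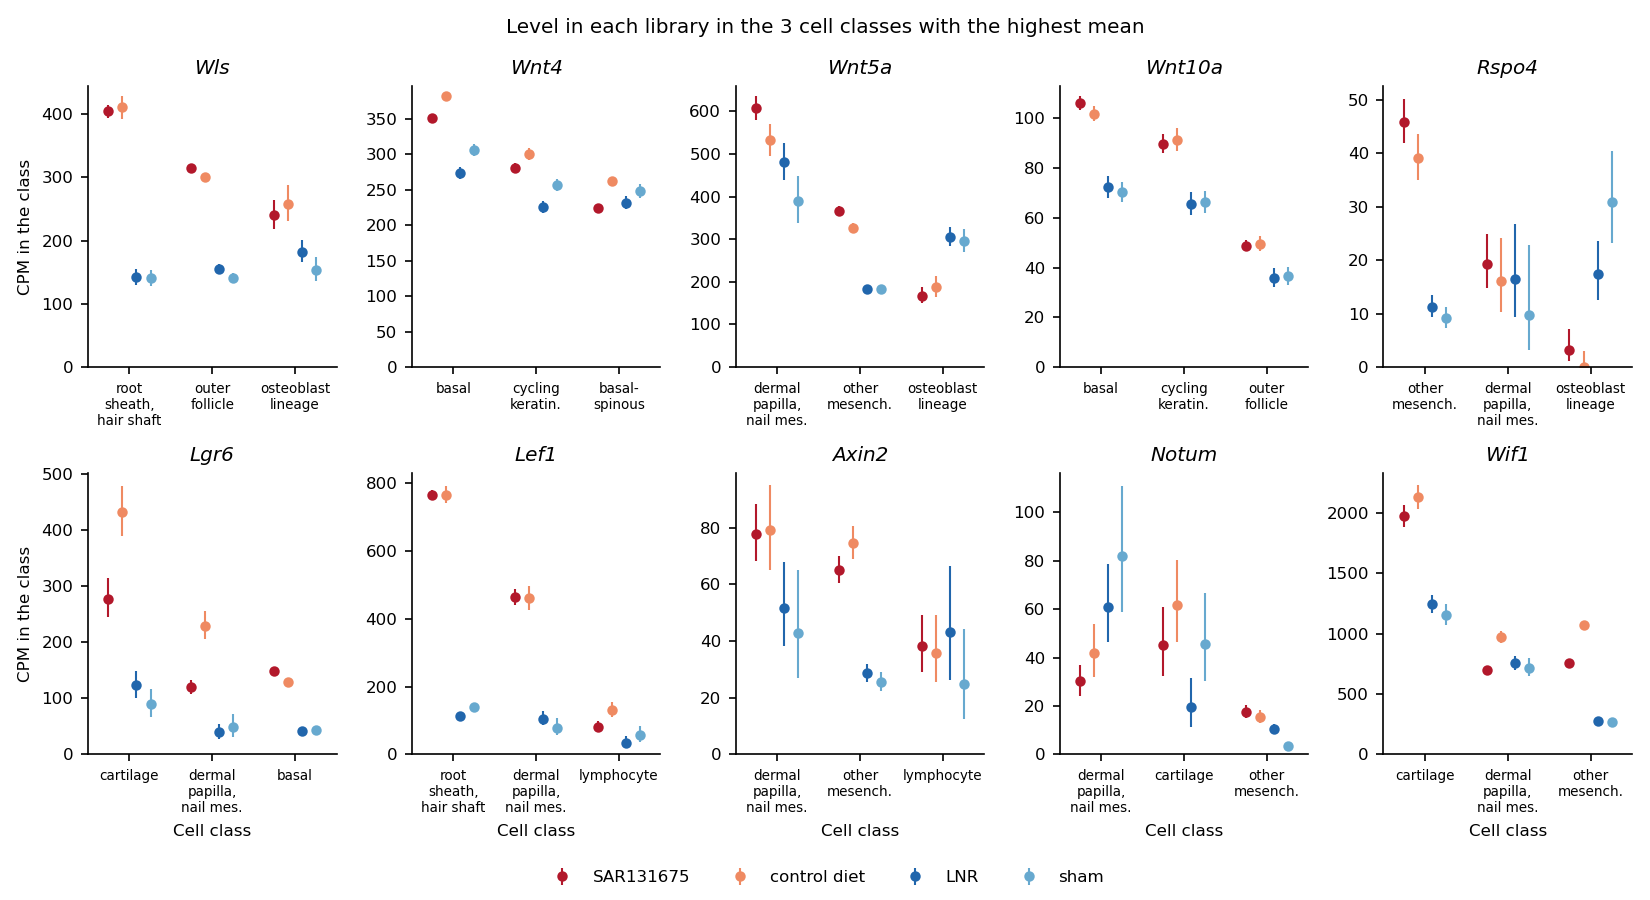
CPM of each gene (panels) in the 3 classes with its highest mean level, with 1 point per library and exact 95% Poisson intervals. The leading class of Wnt5a and of Wif1 stands apart from the second class in every library, while the leading class of Wls, Rspo4 and Notum changes between libraries. Lower classes change order for other genes too, among them Lgr6 and Wif1. Lef1 and Lgr6 lie lower in the LNR and sham libraries in all 3 of their classes.

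Rspo4, the nail-linked R-spondin, was the rarest member, with 641 UMIs in SAR131675, 403 in control diet, 259 in LNR and 194 in sham. Other mesenchyme had its highest mean, 26.4 ± 18.9 CPM, with 45.9 and 39.1 CPM in the diet pair and 11.2 and 9.17 CPM in the LNR pair. That class is made of different clusters in the 2 experiments, and a single cluster led by Dkk2, Crabp1 and Coch, found in both, carried most of that class's Rspo4 UMIs. Crabp1 is also in the marker list of the dermal papilla and nail mesenchyme, a name this cluster did not receive. The border between the cluster and that named class rests on the naming rule. In that cluster Rspo4 stood at 66.9 CPM in SAR131675 (814 cells), 49.2 CPM in control diet (819 cells), 44.8 CPM in LNR (714 cells) and 37.1 CPM in sham (607 cells). It held 78.3, 81.4, 44 and 42.3% of all Rspo4 UMIs of those libraries in this order. Osteoblast lineage cells were the next source in the LNR pair, where LNR held 17.4 and sham 31 CPM, against 3.28 CPM in SAR131675 and 0 of 135 cells in control diet. Dermal papilla and nail mesenchyme had the second highest mean, 15.4 ± 4.04 CPM, with 19.3 CPM in SAR131675 and 16.1 CPM in control diet. In the LNR pair a small cluster of that class, led by Rspo3, a, Mdk and Hhip, held 67.5 CPM in LNR and 39.5 CPM in sham. This came from 11 UMIs in 34 cells and 3 UMIs in 25 cells. Macrophages held 1 Rspo4 UMI over the 4 libraries.

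Lgr6, an R-spondin receptor known from epithelial stem cells, had its highest level in cartilage, while basal keratinocytes held the largest share of its UMIs among the classes in every library. The cartilage class, a small cluster led by Cytl1, Col10a1, Acan and Snorc with 93 to 145 cells per library, held 278 CPM in SAR131675, 433 CPM in control diet, 124 CPM in LNR and 89.8 CPM in sham. After thinning, 43, 57.3, 20.7 and 17.4% of these cells had a Lgr6 UMI (83.3, 90.3, 40.7 and 36.2% before it, with 2 to 10 cells left out), against 0.309 to 1.42% of macrophages. Basal keratinocytes stood at 149 and 129 CPM in the diet pair and at 41.7 and 43.2 CPM in the LNR pair. Because basal cells were numerous (1841 to 4079 per library), they held 44.6% of all Lgr6 UMIs in SAR131675, 46% in control diet, 27.8% in LNR and 28% in sham. Dermal papilla and nail mesenchyme had the second highest mean, 109 ± 87.9 CPM, but at 120 CPM in SAR131675 and 39.2 CPM in LNR it lay below the basal cells of those libraries.

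Lef1, the nuclear partner of β-catenin, marked the hair lineage and its papilla. The inner root sheath and hair shaft class, led by Krt25, Krt71, Krt73 and Krt35, held 765 CPM in SAR131675, 764 CPM in control diet, 113 CPM in LNR and 138 CPM in sham. The dermal papilla and nail mesenchyme followed, at 464 and 461 CPM in the diet pair and 105 and 78 CPM in the LNR pair. Lymphocytes, in which LEF1 also acts, were next at 75.4 ± 42.1 CPM. Among outer follicle cells, the cluster led by Lgr5, a follicle stem cell gene, held 133, 197, 51.2 and 52.1 CPM, against 22, 31.2, 9.72 and 6.55 CPM in the other outer follicle clusters. After thinning, 59 and 56.6% of root sheath and hair shaft cells in the diet pair had a Lef1 UMI, and 18.7 and 25.7% in the LNR pair, against 0 to 0.87% of macrophages. The shares before thinning were 81.3, 73, 48.5 and 51.3%, and 59, 63, 16 and 18 cells were left out.

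Of the members, 7 had an entry in the RefSeq promoter table (GRCm38.p6, 250 bases before to 50 after each start), with 10 windows in all. CTTTGA, the core letters bound by TCF and LEF factors, was looked for on both strands, and 1 of these 10 windows held it, that of the most downstream of 4 Lef1 starts (chr3:131156044-131156343, plus strand). Over all 32851 windows, 16% held it. Both Lef1 matches are shown because Lef1 is the member with the largest ratio between libraries below, each as 30 bases of the plus strand with the reverse complement TCAAAG in capitals.
Lef1, match 180 bases before the start, chr3:131156102-131156131: taaaatacatggTCAAAGgaaaataggtat
Lef1, match 120 bases before the start, chr3:131156162-131156191: cattgtctgttcTCAAAGtcaggtcttgca
These letters are a match and not a measured binding site, and no window was given for Wnt5a, Wnt10a and Notum.

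Axin2, a feedback gene that is read as a sign of β-catenin signaling in many tissues, was spread over many classes at low levels. The dermal papilla and nail mesenchyme held 78 CPM in SAR131675, 79.1 CPM in control diet, 51.6 CPM in LNR and 42.9 CPM in sham. Other mesenchyme (48.5 ± 25 CPM) and lymphocytes (35.5 ± 7.77 CPM) overlapped it. The Dkk2-Crabp1-Coch cluster stood at 86.7, 88.8, 73.1 and 68.9 CPM, above the dermal papilla class in each of the 4 libraries. Basal keratinocytes held 15.4 to 26.6 CPM, and macrophages 2.81 ± 1.1 CPM.

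Notum, a secreted enzyme that strips the lipid from Wnt ligands, was scarce, with 295 to 941 UMIs per library. Its mean was highest in the dermal papilla and nail mesenchyme, at 53.7 ± 22.7 CPM, from 30.1 CPM in SAR131675, 42 CPM in control diet, 60.9 CPM in LNR and 81.9 CPM in sham. In the LNR pair, clusters of this class led by Igfbp3, a and Crabp1 held Notum at 56.1 and 72.9 CPM in LNR. In sham they held 145 and 70.2 CPM. The small cluster of the class led by Rspo3, a, Mdk and Hhip ranked below the osteoblast lineage cluster, which held 19.7 CPM over LNR and sham together. Cartilage overlapped it with 45.2, 61.7, 19.7 and 45.7 CPM and was the highest class in both libraries of the diet pair. Other mesenchyme held 11.7 ± 6.17 CPM. The intervals were wide, for example 59 to 111 CPM in the 136 sham dermal papilla cells.

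Wif1, a secreted protein that binds Wnt ligands and blocks them, was highest in cartilage, which held 1978 CPM in SAR131675, 2132 CPM in control diet, 1245 CPM in LNR and 1154 CPM in sham, and no other class reached these values in any library. By mean, the dermal papilla and nail mesenchyme followed at 786 ± 125 CPM, then other mesenchyme (592 ± 391 CPM), tendon (453 ± 94.5 CPM) and the osteoblast lineage (426 ± 50.2 CPM). In both libraries of the diet pair, other mesenchyme lay above the dermal papilla class. Macrophages held 3.78 ± 2.04 CPM. The leading class was the same in all 4 libraries for 7 of the 10 genes, the exceptions being Wls, Rspo4 and Notum.

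The Dkk2-Crabp1-Coch cluster was looked at more closely because it holds a secreted agonist, Rspo4, and a secreted inhibitor, Wif1, together. Dkk2, one of the leading genes of the cluster, is a secreted inhibitor as well. The choice of this cluster was made after its values were seen. Besides Rspo4 and Axin2 it held Wif1 at 874, 1237, 969 and 914 CPM and Wnt5a at 443, 362, 458 and 473 CPM in SAR131675, control diet, LNR and sham, while Lef1 was at 0.786 to 6.4 CPM. Other mesenchyme led by Col11a1 and Lrrc15 was 1 cluster in the diet pair and several small clusters, pooled here, in the LNR pair. It also held Wif1 (410 to 568 CPM) and Wnt5a (223 to 255 CPM) but had Rspo4 at 1.25 to 3.12 CPM. The pooled clusters differed, since the one led by Lrrc15, Tnn and Tnnt1 held Wnt5a at 399 CPM in LNR (51 cells) and 427 CPM in sham (35 cells).

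Within the Dkk2-Crabp1-Coch cluster, Wif1 was found more often in cells that had a Rspo4 UMI. The share with a Wif1 UMI was 65.1% of 252 Rspo4-positive cells against 31.5% of the other cells in SAR131675. It was 60.8% of 181 against 33.7% in control diet. In LNR it was 65.1% of 83 against 33.1%, and in sham 66.7% of 60 against 32.7%. The same held in the 783, 781, 600 and 489 cells that could be thinned to 2000 UMIs, where the shares were 59.2 against 25.6%, 57.7 against 27%, 64.6 against 32.2% and 58.1 against 28.6%, and the intervals of the 2 groups of cells did not overlap in any library. Of 5 pairs of members looked at in this cluster, this one is described first because of its values. Cells with a Wnt5a UMI also had Wif1 more often in each library after thinning, at 36.2 against 21.8%, 36.1 against 25.1%, 42.4 against 27% and 40.3 against 21.7%. As for Rspo4, these intervals did not overlap in any library. For Axin2 the thinned shares were 43.3 against 26.1%, 38.7 against 28.2%, 46.4 against 33.3% and 33.3 against 30%, with overlapping intervals in all libraries but SAR131675. For Notum, found in 3 to 34 thinned cells per library, they were 44.1 against 28.2%, 28 against 29.9%, 61.5 against 34.2% and 66.7 against 30.2%, and the intervals overlapped in each library. Thinned shares with a Rspo4 UMI in cells with and without Notum were 8.82 against 9.75% in SAR131675, 20 against 8.73% in control diet, 38.5 against 7.33% in LNR and 33.3 against 6.17% in sham, from 34, 25, 13 and 3 cells with Notum, and the intervals did not overlap in LNR alone. In basal keratinocytes the shares were closer for Wnt10a and Lgr6, with a Lgr6 UMI in 24.2, 21.6, 8.49 and 10.6% of Wnt10a-positive cells and in 20.8, 20.1, 7.67 and 8.45% of the others after thinning. Cells of 1 library are not replicates, so these shares are a description of each library. Genes other than members were not tried, so how many of them would go with Wif1 in the same way was not tested.

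**Figure D3:**
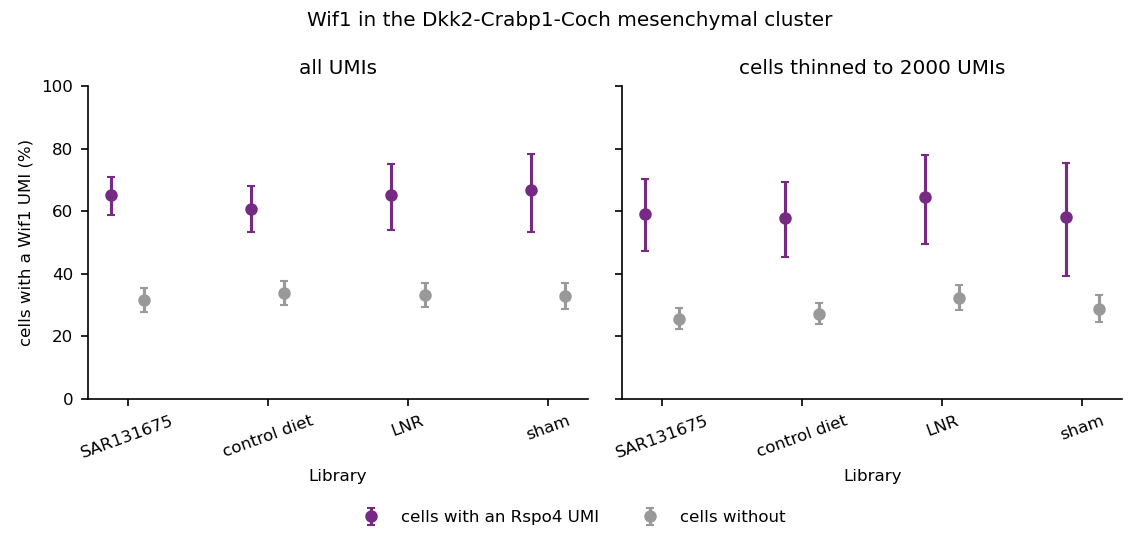
Share of cells with a Wif1 UMI (%) among cells with (purple) and without (gray) a Rspo4 UMI in the Dkk2-Crabp1-Coch mesenchymal cluster, per library, with exact 95% Clopper-Pearson intervals. The left panel uses all UMIs and the right panel cells of at least 2000 UMIs, thinned to that number. In each library the purple point lies above the gray one, with no overlap of the intervals.

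The first comparison asked how the digit differs when VEGFR3 is inhibited. Over all kept cells, Lef1 was the member that differed most, at 49.3 CPM in SAR131675 against 25.6 CPM in control diet, a log2 ratio of 0.95 (0.91 to 0.99). It was the only 1 of the 10 members past 1.5-fold, and 9.69% of the 22625 genes with at least 20 UMIs over both libraries were past it. The other members lay between -0.24 (Wnt4, 163 against 192 CPM) and 0.45 (Notum, 2.77 against 2.02 CPM). Wnt5a had 0.37 (0.33 to 0.41), Rspo4 0.32 (0.13 to 0.50) and Lgr6 0.23 (0.19 to 0.26), and the median over all genes tested was -0.015.

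The class with the highest Lef1 level differed in size between the 2 libraries. Inner root sheath and hair shaft cells were 1108 of the kept SAR131675 cells (3.81%, 3.59 to 4.04) and 411 of the control diet cells (1.71%, 1.55 to 1.88), and they held 70.6 and 53.4% of the Lef1 UMIs. Within that class Lef1 was at 765 against 764 CPM, a log2 ratio of 0.00 (-0.05 to 0.06). With those cells left out, it was at 15.2 against 12.1 CPM, a ratio of 0.32 (0.26 to 0.39), and with all classes given the same shares in both libraries it was -0.022, a value that does not single out 1 class. In the dermal papilla and nail mesenchyme it was at 464 against 461 CPM, 0.01 (-0.12 to 0.15). Whether more such cells were in the tissue or more were recovered from it cannot be told apart with 1 library per condition.

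**Figure D4:**
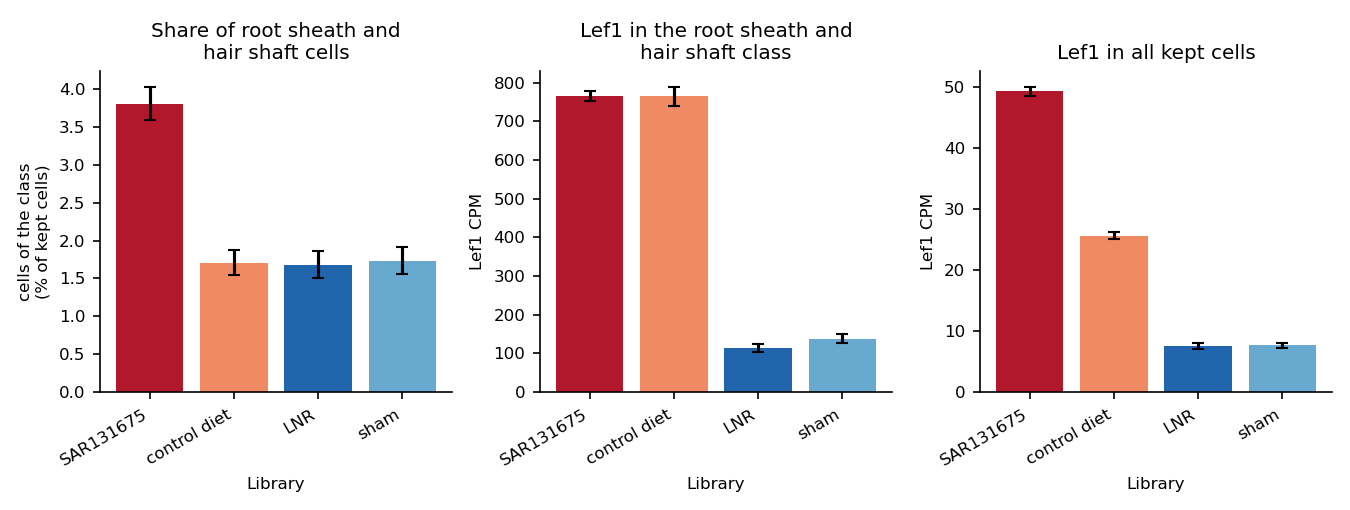
Cells of the inner root sheath and hair shaft class as a percentage of kept cells (left), Lef1 CPM in that class (middle) and Lef1 CPM in all kept cells (right) in each library, with exact 95% intervals. SAR131675 has the largest share of these cells, 3.81% against 1.71% in control diet, while Lef1 within the class is 765 and 764 CPM. The sham share leaves out 394 cells of an unnamed cluster led by Krt71, S100a3 and Krt25.

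In their leading classes, 1 of the 10 members was past 1.5-fold between SAR131675 and control diet. This was Lgr6 in cartilage, at 278 against 433 CPM, a log2 ratio of -0.64 (-0.87 to -0.41) from 96 and 93 cells, in a class where 19.8% of the genes tested were past 1.5-fold. Lgr6 was also lower in the dermal papilla and nail mesenchyme, at 120 against 230 CPM, a log2 ratio of -0.94 (-1.16 to -0.72), where 15.5% of genes were past it. In basal keratinocytes it was slightly higher, at 149 against 129 CPM, 0.21 (0.16 to 0.27). Wif1 was lower in the dermal papilla class (698 against 971 CPM, -0.48) and in other mesenchyme (755 against 1069 CPM, -0.50), and in the inner root sheath and hair shaft class it was higher at 46.5 against 16 CPM, 1.54 (1.19 to 1.90), from 152 and 21 cells with a UMI.

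**Figure D5:**
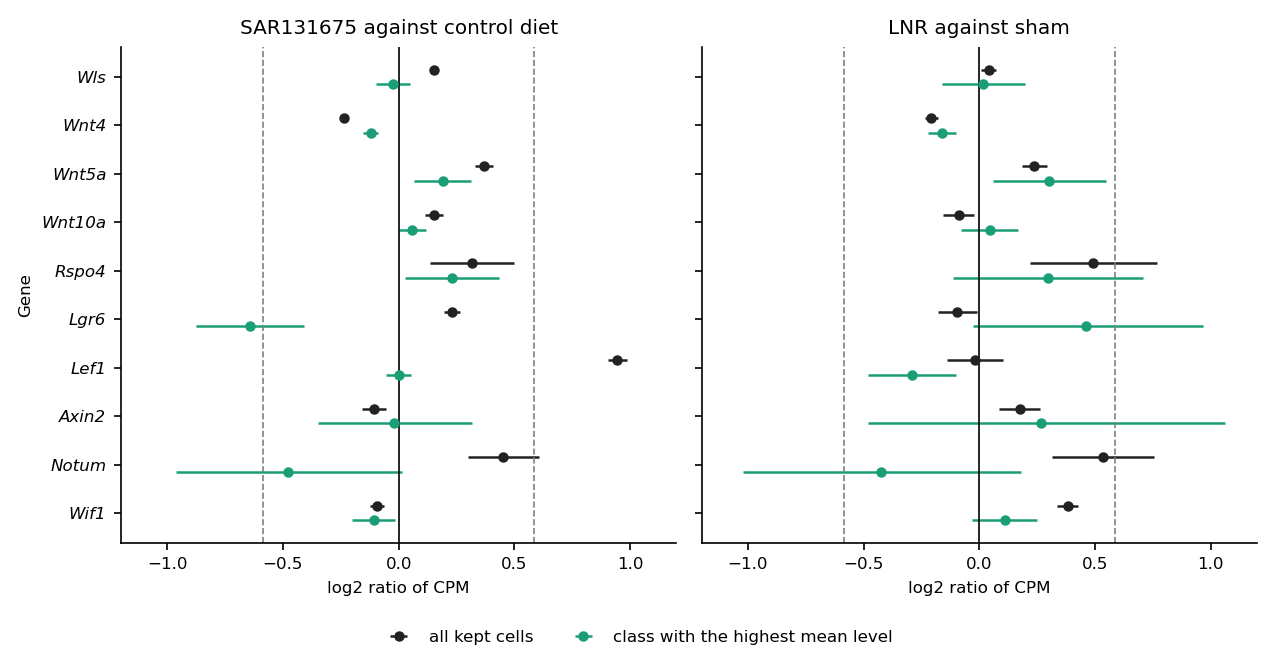
Log2 ratio of CPM for each gene in SAR131675 against control diet (left) and LNR against sham (right), with exact 95% intervals for counting error. Black points are all kept cells, green points the class with the highest mean level, and dashed lines mark 1.5-fold. Lef1 in all cells and Lgr6 in cartilage, both in the left panel, are the points past it.

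The second comparison asked the same of lymph node removal. The named inner root sheath and hair shaft class held 332 LNR and 357 sham cells, and a cluster led by genes of that class (Krt71, S100a3 and Krt25) that kept no name held a further 5 and 394, so its share in the LNR pair depends on the naming. Over all kept cells none of the 10 members was past 1.5-fold between LNR and sham, where 6.59% of 19200 genes were. The largest log2 ratios were those of the scarce genes Notum, 0.53 (0.31 to 0.75) at 2.83 against 1.96 CPM, and Rspo4, 0.49 (0.22 to 0.77) at 1.81 against 1.29 CPM. Wif1 had 0.38 (0.33 to 0.43), Wnt5a 0.24 (0.18 to 0.29) and Wnt4 -0.21 (-0.24 to -0.18), and Lef1, at 7.53 against 7.62 CPM, had -0.017 (-0.14 to 0.10). Leading classes gave none past 1.5-fold either. Among these classes, the share of all genes tested that were past it ran from 5.93% in basal keratinocytes to 20.9% in dermal papilla and nail mesenchyme. In cartilage, where 20.4% were, Lgr6, lower with SAR131675, held 124 against 89.8 CPM, 0.46 (-0.03 to 0.96).

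Some of the differences past 1.5-fold in single classes rested on few cells. Over all members and classes with at least 20 UMIs, 54 of 188 values were past it in the diet pair, 42 of them higher in SAR131675 and 12 lower, and 32 of 155 in the LNR pair, 12 of them higher in LNR and 20 lower. Of all pairs of gene and class tested the same way, 13.3 and 11.2% were past it in the 2 experiments, from 8.8 to 34.6% depending on the class in the diet pair and from 5.83 to 23.9% in the LNR pair. The members were not matched to other genes for level, and how far low counts enter these shares was not tested. Notum in other mesenchyme, at 10.3 CPM in LNR against 3.62 CPM in sham, came from 43 and 20 cells with a UMI, and Rspo4 in the osteoblast lineage, at 17.4 against 31 CPM, from 21 and 28 cells. Wif1 in lymphatic endothelial cells, at 4.05 CPM in LNR against 60.3 CPM in sham, came from 5 and 68 UMIs, of which 67 lay in 1 sham cell. Of the 71 Wif1 UMIs in SAR131675 Schwann cells, 21 lay in 1 of the 8 cells that had any. In SAR131675 sebaceous cells, 58 of the 62 Wif1 UMIs lay in a single cell.

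Of 79 other Wnt pathway genes, 78 were measured. In SAR131675 against control diet, 5 of the 75 with at least 20 UMIs were more than 1.5-fold higher and 0 lower, namely Wnt7a, Rspo3, Sfrp2, Dkk1 and Bambi, with a median log2 ratio of 0.063, while 4.68% of all genes tested were higher and 5.01% lower. Of these, Dkk1 rested on 49 against 14 UMIs and Wnt7a on 96 against 50, with an interval of 0.08 to 1.11, while the others had over 2000 UMIs in each library. In its top class, the dermal papilla and nail mesenchyme (1.37 against 0.999% of kept cells), Rspo3 was at 1764 against 1396 CPM. The top class of Bambi, the inner root sheath and hair shaft, was 3.81 against 1.71% of kept cells. In LNR against sham, 3 of 74 were higher (Rspo1, Fzd9 and Frzb) and 1 was lower (Sost), with a median of 0.079, beside 4.0 and 2.59% of all genes, and Sost rested on 16 against 35 UMIs. No gene passed in the same direction in both pairs, although Rspo3, another R-spondin, had 0.62 in the diet pair and 0.44 in the LNR pair. The secreted inhibitor Sfrp2 had 1.05 in the diet pair and -0.17 in the LNR pair.

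By role and among genes with at least 20 UMIs, 1 of 15 ligands, 1 of 7 R-spondins and their receptors, 2 of 12 secreted inhibitors and 1 of 9 targets were more than 1.5-fold higher in SAR131675 (4.68% of all genes tested), with 0 of 16 receptors and 0 of 16 ligand processing and intracellular genes. Of the ligands, Wnt16 was highest in the osteoblast lineage (191 ± 99.9 CPM), Wnt2 in adventitial fibroblasts (80.6 ± 12.2 CPM) and Ndp in the dermal papilla and nail mesenchyme (73 ± 35.4 CPM). The dermal papilla and nail mesenchyme was also the top class of Rspo3 (1469 ± 250 CPM), the receptor Ryk (217 ± 51.2 CPM) and the inhibitors Dkk2 (654 ± 98.1 CPM) and Apcdd1 (553 ± 138 CPM). The inner root sheath and hair shaft class was that of β-catenin itself, Ctnnb1 (408 ± 61.6 CPM), of the ubiquitin ligase Znrf3 (273 ± 281 CPM), and of the targets Ccnd1 (372 ± 132 CPM) and Bambi (169 ± 19.2 CPM). Lgr5 was highest in outer follicle cells (358 ± 256 CPM), Ror1 in basal keratinocytes (212 ± 229 CPM), Sfrp4 in the osteoblast lineage (535 ± 173 CPM), and Fzd6 (178 ± 83.5 CPM) and Apc (371 ± 143 CPM) in lymphatic endothelial cells. Csnk1a1 led in spinous cells (748 ± 312 CPM) and Cd44 in neutrophils (1174 ± 604 CPM).

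Genes with the most similar class profile were ranked by Pearson r over the 26 classes among 14437 genes, as a description over classes that share libraries. For Wnt4 they were Pak6 (0.97), Fam83c and Sfn (both 0.95), and for Wnt10a Krt5, Htr1d (both 0.89) and Dlk2 (0.88). For Wnt5a they were Lrrc15 (0.92), Cacna2d3 (0.89) and Dio3os (0.88), and for Rspo4 Syt13 (0.91), Tnn and Gm26771 (both 0.90). Wif1 was closest to Tceal3 (0.93), Loxl4 and Smoc1 (both 0.88), and Notum to Steap1 (0.89), Corin (0.87) and Smoc1 (0.85). The profiles were less alike for Lef1, with Mycn (0.84), Mex3a (0.80) and Qrfp (0.78), for Lgr6, with Smoc2 (0.81), Etv4 (0.78) and Fgfr2 (0.74), and for Axin2, with Itfg2 (0.80), 4933407K13Rik (0.80) and Bclaf3 (0.79). For Wls they were Gtf3c4 (0.90), Trim32 (0.89) and Rad52 (0.88). Between members, the highest r was that of Wif1 and Notum (0.84) and the lowest that of Rspo4 and Wnt4 (-0.43). Marker genes of the classes were not left out of the ranking. Krt5, Sfn and Corin are such markers, so their r follows in part from how the classes were named.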

How the data were processed

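For the 4 libraries of 10x Genomics 3′ scRNA-Seq, the deposited values are UMI counts of each gene in each barcode, not normalized. The matrix headers name Cell Ranger 6.1.2 for LNR and sham and Cell Ranger 8.0.1 for SAR131675 and control diet, whereas the submitters' processing notes name 6.1.2 and the build GRCm39 for all. No barcode had under 500 UMIs. The reference at hand is of another build, so no gene coordinates are given other than those of the RefSeq promoter windows.

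Cells with 200 to 5500 genes, at most 30000 UMIs and at most 10% mitochondrial UMIs were kept. In each pair, 2000 variable genes, without the members and the pathway list, were reduced to 30 principal components, and Leiden clusters were drawn at resolution 2 from 20 nearest neighbors (scanpy 1.11.5, igraph 0.11.9, Python 3.11.15). Clusters were named by marker lists, and clusters that mixed lineages were clustered again. The score limits for names, the basal-spinous class and this second clustering were chosen after marker profiles of the clusters had been seen, and 2155, 2589, 2048 and 1601 cells of LNR, sham, SAR131675 and control diet kept no name. Of the unnamed cells, 399 formed 1 cluster led by Krt71, S100a3 and Krt25 with markers of mesenchyme as well, 394 of them from sham. Erythroid, mast and melanocyte clusters had under 20 cells in some library and were left out of the class comparison. The class of mesenchyme without a more specific name holds different clusters in the 2 pairs, mainly those led by Dkk2, Crabp1 and Coch and by Col11a1 and Lrrc15 in the diet pair, with further ones in the LNR pair.

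CPM was computed over the summed UMIs of a class. Intervals are exact Poisson for CPM, Clopper-Pearson for shares and exact conditional for log2 ratios, at 95%, and treat UMIs or cells as independent. Only those for log2 ratios were tried on simulated counts. These were Poisson counts, the model the intervals assume, so the trial cannot show how they hold for the real counts. A gene counted as past 1.5-fold only with at least 20 UMIs over both libraries. The leading class of a gene is the one with the highest mean CPM over the 4 libraries. The members, the pathway list and the markers were chosen with earlier results of these data known. All 10 members were named, as were up to 3 pathway genes per role with the highest class CPM and the 3 genes most alike in class profile, out of those with 100 or more UMIs per library. The Dkk2-Crabp1-Coch, Col11a1-Lrrc15 and Lgr5-led clusters, the pathway genes past 1.5-fold in 1 pair and the single-class values were named after they were seen. Doublets were left in. Scrublet, tried as an alternative, called 7.41, 6.97, 4.67 and 0.907% of LNR, sham, SAR131675 and control diet cells, below the expected 15.9, 16.5, 23.3 and 19.2%.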

Additional observations from a re-analysis of the deposited data

How the results depend on the processing

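No paired analysis was possible because each condition has 1 library, and no replicate could be left out. For SAR131675 against control diet over all kept cells, 1 member (Lef1) was past 1.5-fold, and 0 were with the classes given the same shares in both libraries, with the cells of each gene's leading class left out (an alternative chosen after seeing the data) or at 2-fold. The log2 ratio of Lef1 was 0.73 to 0.96 under the other alternatives and -0.022 with the same class shares. For LNR against sham over all kept cells, 1 member (Notum, 0.60) was past 1.5-fold with cells thinned to 2000 UMIs and 0 under the other alternatives. In leading classes, the count of 1 for SAR131675 became 0 at resolution 0.7 and at 2-fold, 2 with the mean of per-cell CPM or thinned cells, and 5 with each library clustered alone. Lgr6 there had 0.23 at resolution 0.7, where the diet pair had no cartilage class and basal keratinocytes led. The count of 0 for LNR became 1 at resolutions 0.7 and 3, 2 with each library clustered alone or the mean of per-cell CPM, and 3 without Scrublet calls or at a mitochondrial limit of 5%. The share of all genes past 1.5-fold in those classes is not given for these alternatives. The 7 members with the same leading class became 2 at resolution 0.7, 5 with the mean of per-cell CPM or thinned cells, and 6 under the other 5 alternatives that could change it. Where no reason is given, the cause was not tested. Depth limits Rspo4 and Notum most, with 194 to 941 UMIs per library.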

Other observations

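Notum was also found in a mesenchymal cluster led by Itih5, Sbspon, Gpc6 and Cpxm2, which is part of the mesenchyme without a more specific name and was singled out after its values were seen. In the diet pair this cluster was small, with 27 SAR131675 and 24 control diet cells. It held Notum at 131 and 115 CPM, from 25 and 24 UMIs, and the ligand Wnt10a at 152 and 110 CPM, from 29 and 23 UMIs. Over both libraries together it ranked first for both genes among clusters of at least 50 cells of that pair. In the LNR pair a cluster of 315 LNR and 266 sham cells led by Itih5, Apod and Inmt held Notum at 44.6 and 18.2 CPM, from 40 and 13 UMIs. For Wnt10a this cluster was not among the 5 highest of the LNR pair, of which the lowest held 54.3 CPM over both libraries together.

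A cluster of the diet pair named by melanocyte markers (230 SAR131675 and 166 control diet cells), whose leading genes also include the contractile genes Cnn1, Acta2 and Mylk, held Notum at 33.8 and 40.3 CPM. It was left out of the class comparison because the LNR and sham libraries had 10 and 13 such cells. In the LNR pair, a cluster of 36 LNR and 20 sham cells led by Tchh, Krt31 and Krtap11-1, which kept no name, held Lef1 at 126 and 167 CPM.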
